A study of Mus musculus with 3 samples.

Results

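In bronchoalveolar lavage of mice, 111 cells carried the chemokine transcripts Ccl3 and Ccl4 together with granulocyte transcripts, and held no transcript of the neutrophil receptor Cxcr2. They were 111 of 15809 cell barcodes in all, and 110 of the 111 came from mice that had breathed 1.5 ppm ozone. A barcode counted as such a cell if it had at least 500 unique molecular identifiers (UMIs, each standing for 1 captured transcript molecule), at least 300 genes, at most 1% of its UMIs from mitochondrial genes, 0 UMIs of Cxcr2, at least 5 UMIs of Ccl3 and Ccl4 together, and at least 2 UMIs of S100a8, S100a9 and Csf3r together. The cells were thus chosen by their measured values, and the levels of these 6 genes and of the mitochondrial share describe the rule and are not results. The cells are called Cxcr2-negative Ccl3 Ccl4 cells here.

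The mice were wild-type C57BL/6J, 12 weeks old. For 3 hours they were kept in filtered air or in ozone, an oxidant gas, at 1 ppm or at 1.5 ppm, and their airspaces were lavaged 22 to 24 hours afterwards. Cells of 3 to 4 mice were pooled before each library was made, so each exposure was 1 library without replicate. No difference between doses or between cell sets was therefore tested, and the 95% intervals given are for counting error alone. The libraries held 5307 barcodes and 59359742 UMIs for filtered air, 3233 barcodes and 42825676 UMIs for 1 ppm, and 7269 barcodes and 95403078 UMIs for 1.5 ppm. Of barcodes with at most 10% mitochondrial UMIs, cells with alveolar macrophage transcripts made up 94.6% in air, 95.4% at 1 ppm and 85.0% at 1.5 ppm. Between 4 and 10 barcode sequences were shared by each pair of libraries, and 0 of the 110 cells of the 1.5 ppm library shared theirs with another library.

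Neutrophils leave the blood for inflamed airspaces by following CXC chemokines, which they sense through Cxcr2. The calprotectin proteins S100a8 and S100a9 fill their cytoplasm, and Csf3r is the receptor for the granulocyte growth factor G-CSF. Ccl3 and Ccl4 are CC chemokines that draw monocytes, T cells and granulocytes, and activated macrophages and neutrophils both make them. Granulocytes hold far less RNA than macrophages and few mitochondria, so in droplet data they appear as barcodes of low UMI totals and low mitochondrial share.

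Short promoter windows of 3 genes are shown because their levels set these cells apart from the Cxcr2-positive neutrophils of the same library. Lgmn, Lamp1 and Ctsl encode lysosomal proteins that were higher in the Cxcr2-negative cells, and each holds CACGTG, the core letters bound by TFEB and related factors of lysosomal genes, between 250 bases before and 50 bases after its start site. Sequences run 5′ to 3′ on the gene's strand, come from RefSeq on build GRCm38.p6 (not the build of the counts), and have the motif in capitals.
Lgmn, chr12:102439124-102439153, minus strand: tggaatgtctgtCACGTGgtccattttata
Lamp1, chr8:13159104-13159133, plus strand: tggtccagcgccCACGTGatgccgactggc
Ctsl, chr13:64370739-64370768, minus strand: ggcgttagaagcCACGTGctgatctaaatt
Of the 19 lysosomal genes listed, 15 were in the promoter table, and 5 of these 15 (33.3%) held CACGTG on either strand, against 2187 of all 27025 promoters (8.09%). Ctsa and Ctsd also held the motif and are not shown, and Ctsd was within 2-fold of its level in the neutrophils. The longer form TCACGTGA was in 2 of the 15 (13.3%), Ctsa and Ctsd, and not in the genes shown. The 3 genes shown were picked for being higher, so they do not relate motif to level. The motif was chosen after the levels were known, and a match describes letters, not binding.

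In filtered air, 0 of 3479 barcodes with at most 10% mitochondrial UMIs met the rule, which allows a share of up to 0.0862% at 3 counts. At 1 ppm, 1 of 2241 met it (0.0446%, exact binomial interval 0.00113 to 0.248%). At 1.5 ppm, 110 of 6577 met it (1.67%, 1.38 to 2.01%). The interval at 1.5 ppm lay above those of the other libraries. Cxcr2-positive neutrophils, which had at least 1 UMI of Cxcr2 and at least 5 UMIs of the 3 granulocyte genes under the same filters, numbered 1 in air, 6 at 1 ppm and 72 at 1.5 ppm. At the same limit of 5 granulocyte-gene UMIs, the Cxcr2-negative cells at 1.5 ppm numbered 74, against these 72. Barcodes with at most 1% mitochondrial UMIs, the limit of the rule, were themselves unevenly spread, with 46 in air, 51 at 1 ppm and 432 at 1.5 ppm. Of these the Cxcr2-negative Ccl3 Ccl4 cells were 0 of 46, which allows a share of up to 6.52%, then 1 of 51 (1.96%, 0.0496 to 10.4%) and 110 of 432 (25.5%). The part of this spread in the difference between doses was not tested.

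The 1 cell of the 1 ppm library had 2523 UMIs and 733 genes. It held 32 UMIs of S100a8 and 82 of S100a9 but 0 of Csf3r, with 23 of Ccl3, 7 of Ccl4, 72 of the neutrophil-attracting chemokine Cxcl2 and 0 of Thbs1. With 114 granulocyte-gene UMIs it lay far above the median of 9 in the 1.5 ppm cells. All values that follow are from the 1.5 ppm library.

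The 110 cells held 259178 UMIs in sum. Their UMI totals ran from 833 over a median of 2168 to 15155 per cell, close to the Cxcr2-positive neutrophils (median 2302, 169992 UMIs in sum) and far below macrophages (median 13261). The median mitochondrial share was 0.0916% in the Cxcr2-negative cells and 0.105% in the neutrophils, against 2.29% in macrophages. These shares follow unlike limits, at most 1% for the Cxcr2-negative cells and the neutrophils and at most 10% for macrophages. The deepest 2 cells, with 15155 and 7294 UMIs, also met the rule for macrophages (at least 10 UMIs over 8 macrophage genes, at least 4 of them detected), and they held 5.85% and 2.81% of the UMIs of the set.

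Ccl3 and Ccl4 UMIs together ran from 5 over a median of 13.5 to 427 per cell, and 90 of the 110 cells held both genes. The summed level of Ccl3 was 6224 CPM (counts per 1e6 UMIs of the set), against 1200 CPM in the Cxcr2-positive neutrophils and 9.55 CPM in macrophages, and that of Ccl4 6474 CPM, against 3112 CPM and 3.62 CPM. S100a8 was at 4229 CPM, against 14642 CPM in the neutrophils and 19.7 CPM in macrophages, and Csf3r at 895 CPM, against 2453 CPM and 15.9 CPM. Granulocyte-gene UMIs ran from 2 over a median of 9 to 166, against a median of 59.5 in the Cxcr2-positive neutrophils. Csf3r was detected in 77 of the 110 cells, and S100a8 with S100a9 in 64. At the edges of the rule, 19 cells had exactly 2 granulocyte-gene UMIs, and a further 12 cells outside it had 1 and 19 had 0. There were 6 cells with exactly 5 UMIs of Ccl3 and Ccl4, and 4 cells outside with 4. A further 23 cells failed on Cxcr2 alone, 10 of them by a single UMI, and 8 failed on a mitochondrial share between 1 and 2%. The cells formed a spread across the limits on gene UMIs, with no gap at any of these. The 8 cells past the mitochondrial limit were not cleared of barcodes that also met the macrophage rule, so they do not show such a spread there.

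**Figure D1:**
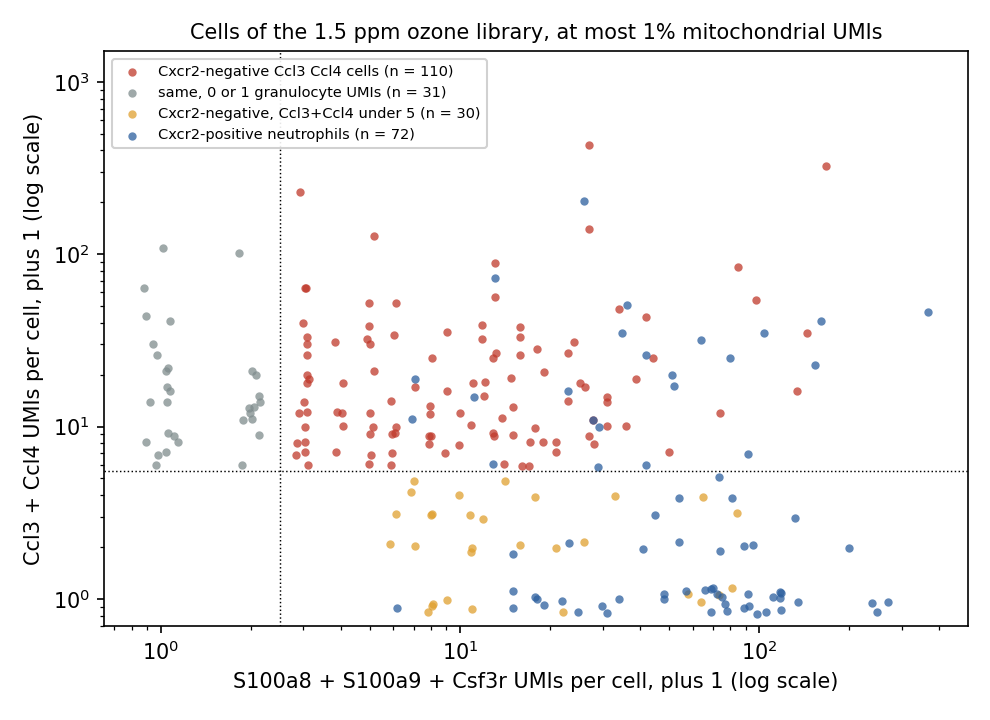
Each point is 1 cell of the 1.5 ppm library, placed by its UMIs of S100a8, S100a9 and Csf3r (x axis) and of Ccl3 and Ccl4 (y axis), each plus 1 on a log scale with a small horizontal and vertical scatter; dotted lines mark the limits of 2 and 5 UMIs. The 110 Cxcr2-negative Ccl3 Ccl4 cells (red) adjoin 31 cells with 0 or 1 granulocyte UMIs (grey), 30 Cxcr2-negative cells with fewer chemokine UMIs (yellow) and 72 Cxcr2-positive neutrophils (blue).

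The granulocyte name was held against markers that the rule did not use. Clec4d, a C-type lectin receptor of myeloid cells, was at 2465 CPM in the Cxcr2-negative cells, against 1553 CPM in the neutrophils and 31.5 CPM in macrophages, and 90.9% of the Cxcr2-negative cells held a UMI of it. Il1r2, the decoy receptor for interleukin-1, was at 69.5 CPM, against 1135 CPM in the neutrophils and 0.444 CPM in macrophages. The gelatinase gene Mmp9 was at 15.4 CPM, against 576 CPM in the neutrophils and 0.189 CPM in macrophages. The neutrophil surface gene Ly6g had 0 UMIs in the Cxcr2-negative cells and in the neutrophils, and 1 UMI in macrophages. Over the 16 listed neutrophil markers, including the rule's own genes, the sum was 10433 CPM in the Cxcr2-negative cells, 37890 CPM in the neutrophils, 345 CPM in macrophages and 44.5 CPM in T cells of the same library. Of the 12 of these markers at levels high enough to be considered, 10 were lower in the Cxcr2-negative cells than in the neutrophils and 0 were higher, and the 10 include 4 of the rule's own genes. The name therefore rests largely on the rule's own genes and on Clec4d. Clec4d was within 2-fold of this level in the chemokine cells with 0 or 1 granulocyte-gene UMIs compared below, so it did not follow the granulocyte genes.

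Most defining genes of other cell types were at or near 0, but not all. The eosinophil genes Epx, Prg2 and Il5ra and the mast cell genes Tpsab1 and Cma1 had 0 UMIs, as had 8 of 10 eosinophil, 8 of 9 basophil, 8 of 9 complement-rich macrophage, 7 of 9 migratory dendritic and 6 of 6 plasmacytoid dendritic markers. The 10 T cell markers summed to 92.6 CPM, against 4070 CPM in T cells. Of 8 classical monocyte markers only 3 had 0 UMIs, and the list summed to 131 CPM, against 118 CPM in the neutrophils and 572 CPM in macrophages. Markers of conventional dendritic cells summed to 251 CPM (type 1) and 397 CPM (type 2, mostly Sirpa at 394 CPM), against 441 CPM and 388 CPM in the neutrophils. The mast cell gene Hpgds was at 73.3 CPM, against 23.5 CPM in the neutrophils. Alveolar macrophage markers were not at 0: the 17 listed genes summed to 3484 CPM in the Cxcr2-negative cells, against 2241 CPM in the neutrophils, 15378 CPM in macrophages and 824 CPM in T cells. Without the 2 cells that also met the macrophage rule, the sum over the other 108 Cxcr2-negative cells was 2260 CPM, and Pparg was at 12.7 CPM in place of 65.6 CPM. The largest of them was Chil3, a chitinase-like protein of alveolar macrophages, at 1215 CPM in the Cxcr2-negative cells, 970.6 CPM in the neutrophils, 6254 CPM in macrophages and 423 CPM in T cells. The part of free macrophage RNA in the levels below was not tested.

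The label genes that the rule did not use split. Ccrl2, an atypical receptor that binds the attractant chemerin without signalling, was at 1258 CPM (Poisson interval 1125 to 1402) in the Cxcr2-negative cells and at 182 CPM (124 to 259) in the Cxcr2-positive neutrophils, a ratio of 6.90 (4.77 to 10.3). It was found in 73 of 110 against 9 of 72 cells, and was at 3.93 CPM in macrophages. Thbs1, the matrix protein thrombospondin 1, was at 1705 CPM (1550 to 1872) in the Cxcr2-negative cells and 1200 CPM (1041 to 1377) in the neutrophils, a ratio of 1.42 (1.20 to 1.69), and at 1.37 CPM in macrophages. It was found in 72 of 110 against 21 of 72 cells. Thbs1 thus separated both sets from macrophages, at summed levels within 2-fold of each other, though a larger share of the Cxcr2-negative cells held it. Ccrl2 set the Cxcr2-negative cells apart from the Cxcr2-positive neutrophils. It did not set them apart from the neighbouring Cxcr2-negative sets compared below, which held it within 2-fold.

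Across all genes, a gene was considered if it had at least 100 CPM and 30 UMIs in the higher of both sets, and called higher or lower at 2-fold or more. Against the Cxcr2-positive neutrophils, 1729 genes were considered, of which 314 (18.2%) were higher and 365 (21.1%) lower in the Cxcr2-negative cells. These counts include the 6 genes of the rule, Ccl3 and Ccl4 among the higher and the others among the lower. The other 1050 genes, 60.7%, lay within 2-fold. Over the 5206 genes with at least 10 UMIs in both sets together, the median log2 ratio was -0.08, and scaling by the median ratio over genes moved all log2 ratios by 0.10. With that scaling 359 genes were higher and 332 lower, and with every cell thinned to 1000 UMIs 192 were higher and 151 lower. Which direction had more calls thus depended on scaling and depth. The minimum of 30 UMIs was also stricter for lower genes. It stood for a higher CPM in the neutrophils (169992 UMIs in sum) than in the Cxcr2-negative cells (259178 UMIs). Of the 314 higher calls, 300 remained when each gene lost its topmost cell in each set, as did 354 of the 365 lower calls.

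Iron storage, haem and antioxidant genes were higher as a group. The ferritin light chain gene Ftl1 ran from 54.9 over a median of 395 to 1398 UMIs per 10000 in the Cxcr2-negative cells, and from 5.54 over a median of 47.5 to 932 in the neutrophils. The sets overlapped, but the median neutrophil lay below the lowest Cxcr2-negative cell. In sum Ftl1 was at 39386 CPM against 9577 CPM, with a ratio of 4.11 (interval 3.90 to 4.34). Ferritin heavy chain, Fth1, was at 63173 CPM against 39478 CPM, a log2 ratio of 0.68 and within 2-fold. Hmox1, the enzyme that breaks down haem, was at 941 CPM (827 to 1067) against 100 CPM (58.3 to 160), a ratio of 9.41 (5.76 to 16.4), and was found in 59 of 110 against 11 of 72 cells. Gclc and Gclm, the subunits of the enzyme that starts glutathione synthesis, had log2 ratios of 2.48 and 1.76, and Txnrd1, thioredoxin reductase, had 1.27. The cystine importer Slc7a11 was at 1246 CPM against 635 CPM (log2 0.97), and glutathione peroxidase Gpx1 was lower, at 201 CPM against 765 CPM. Of 22 listed genes, 16 were considered, and 8 were higher and 3 lower, with a median log2 ratio of 1.12 over the 18 with at least 10 UMIs.

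Lysosomal genes were higher too. Cd63, a tetraspanin of lysosomes and granules, had a median of 38.2 UMIs per 10000 in the Cxcr2-negative cells (highest 144) and of 4.52 in the neutrophils (highest 104), and was found in 108 of 110 against 45 of 72 cells. Its summed level was 4163 CPM against 1082 CPM, a ratio of 3.85 (3.29 to 4.52). Psap, the precursor of the saposins that help break down sphingolipids, had a median of 42.4 against 3.95 UMIs per 10000 and a ratio of 3.55 (3.05 to 4.14). The protease genes Ctsb and Lgmn had log2 ratios of 1.79 and 1.82, and Lipa, the lysosomal lipase, 2.35. The lysosomal membrane gene Lamp1 was at 1219 CPM against 365 CPM and Ctsl had a log2 ratio of 1.38. Ctsd was at 2716 CPM against 1612 CPM, within 2-fold. Of 19 listed lysosomal genes, 16 were considered, and 12 were higher and 1 lower. Their median log2 ratio was 1.29, and the list summed to 15842 CPM against 6277 CPM.

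All 7 cholesterol genes that were considered, of 14 listed, were higher in the Cxcr2-negative cells. They include the sterol sensor partner Insig1 (log2 2.87) and the synthesis enzymes Fdft1 (2.34) and Msmo1 (2.07). Msmo1 was at 390 CPM against 88.2 CPM and was found in 47 of 110 against 12 of 72 cells. The median over 11 genes was 2.07, or 1.89 with genes at 0 set to their bound of 3 counts. Levels were low, with 1555 CPM for the list against 329 CPM.

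Heat shock transcripts were concentrated in few cells. Hspa1b and Hspa1a, paired genes for the inducible chaperone Hsp70, had 331 and 231 UMIs against 4 and 4, at log2 ratios of 5.45 and 4.93. Only 23 of 110 Cxcr2-negative cells held Hspa1b and 19 held Hspa1a, and no single cell held more than 16.9% of the UMIs of either. These near-identical genes can share reads, so each value is uncertain. Hsp90aa1, a chaperone that most cells hold, was at 2056 CPM against 494 CPM, in 75 of 110 against 42 of 72 cells. Of 14 listed heat shock genes, 10 were considered, and 4 were higher and 0 lower. The list median of 0.71 was -0.031 against neutrophils taken up to 10% mitochondrial UMIs. The group as a whole thus did not keep its direction against that wider set. Here and below, the wider set was not cleared of barcodes that also met the macrophage rule. The part of such barcodes in the change was not tested.

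Several stress and immune checkpoint genes were also higher. Gadd45b, which is induced by stress and inflammatory signals, was at 1806 CPM against 371 CPM, found in 85 of 110 against 27 of 72 cells. The stress transcription factor Atf3 was at 448 CPM against 88.2 CPM. The T cell inhibitory ligands Pdcd1lg2 (PD-L2) and Cd274 (PD-L1) were at 625 CPM against 135 CPM and 683 CPM against 229 CPM. Gdf15, a stress-induced cytokine, had a log2 ratio of 2.52, with 33.8% of its UMIs in 1 cell. Ero1a, an oxidase of the endoplasmic reticulum that hypoxia induces, had 2.70, and Hilpda, a lipid droplet protein gene also induced by hypoxia, 1.81. Ero1a was found in 20 of 110 cells, also with 33.8% of its UMIs in 1 cell, and had 2.60 without the topmost cell of each set.

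The largest ratios belonged to genes that few cells held. Prrg1 had 143 UMIs in 15 cells against 0, which puts it at least 31.3-fold higher when 3 counts are set for the neutrophils. Prok2, a secreted prokineticin, had 59 UMIs in 5 cells, 52.5% of them in 1 cell, against 0, at least 12.9-fold higher. Rgs1, a regulator that dampens chemokine receptor signalling, was at 513 CPM in 32 cells against 17.6 CPM in 2. The integrin gene Itgb3 (log2 3.70), Asph (3.62), Ccdc126 (3.29), Abcc5 (3.28), Rab3gap2 (3.21) and Plcxd2 (3.18) were also among the 12 largest, with Hspa1b and Hspa1a. Of these, Ccdc126 was the most widely found, in 42 of 110 against 4 of 72 cells. Abcc5 was in 6 cells, and its log2 ratio was -0.51 against neutrophils taken up to 10% mitochondrial UMIs. T cells of the same library served as a check on free RNA, which cannot separate it from transcripts that the T cells make themselves. Rgs1, Itgb3, Abcc5 and Plcxd2, alone among the 12, had at most 2 times as many UMIs per Cxcr2-negative cell as per T cell. For Plcxd2 these were 0.364 against 0.396, and Gclc, named above, also fell in this range. Rgs1 was at 191 CPM in T cells and found in 29.2% of them, and its source there was not tested. The part of free RNA in these levels was not tested.

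**Figure D2:**
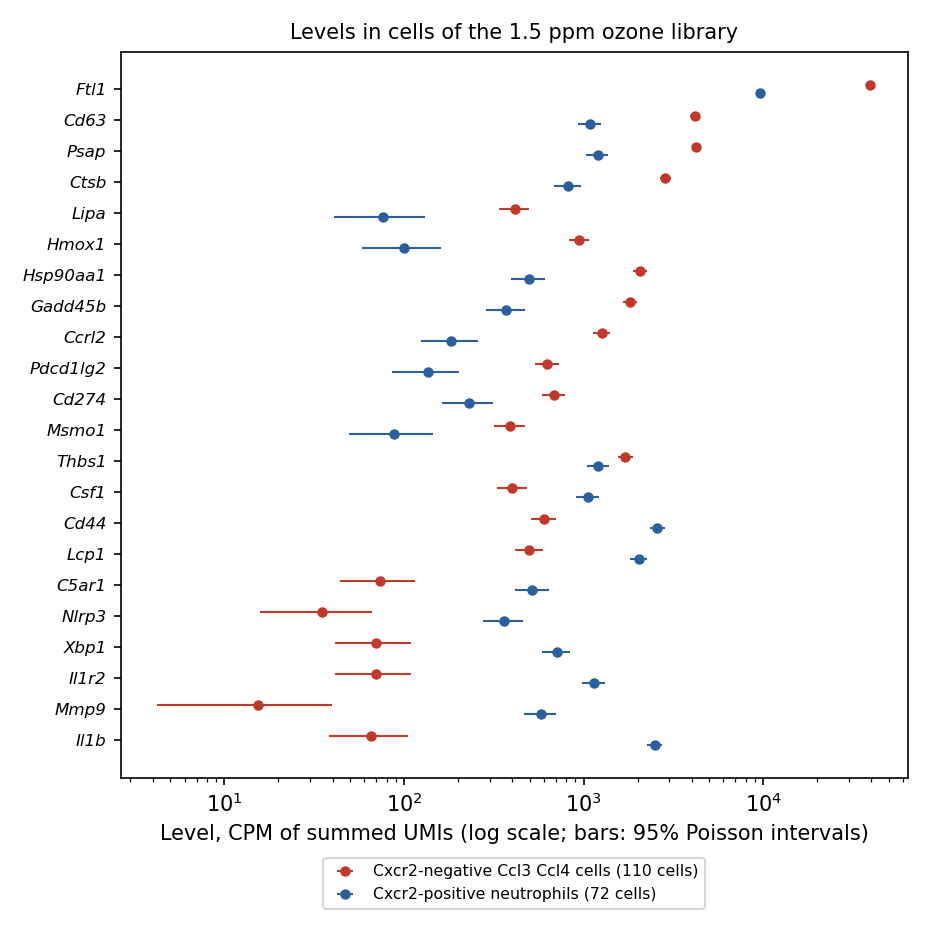
Summed levels of 22 genes in the 110 Cxcr2-negative Ccl3 Ccl4 cells (red, upper point of each pair) and the 72 Cxcr2-positive neutrophils (blue) of the 1.5 ppm library, in CPM on a log scale with exact Poisson 95% intervals. The genes from Ftl1 down to Msmo1 lie to the right in the Cxcr2-negative cells, Thbs1 lies within 2-fold, and the genes from Csf1 down to Il1b lie to the left.

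Il1b, Il1r2 and Nlrp3 were among the lower genes. Il1b, the secreted cytokine, had 17 UMIs (65.6 CPM) in the Cxcr2-negative cells against 422 UMIs (2482 CPM) in the neutrophils, a ratio of 0.0264 (0.0152 to 0.0428). It was found in 9 of 110 against 46 of 72 cells, with a highest value of 22.0 against 194 UMIs per 10000. Il1r2 was found in 16 of 110 against 52 of 72 cells, at a ratio of 0.0612 (0.0355 to 0.0993). Nlrp3, the sensor that starts processing of interleukin-1, was at 34.7 CPM against 359 CPM. Il1rap, the co-receptor chain for interleukin-1, was lower by less, at 336 CPM against 771 CPM, and the receptor antagonist Il1rn was within 2-fold, at 1582 CPM against 1100.1 CPM. Of 26 listed cytokine and growth factor genes, 8 were considered, and 4 were lower and 1 higher, with a median log2 ratio of 0.07. Csf1, the macrophage growth factor, was among the lower at 401 CPM against 1053 CPM, though it was at 0.777 CPM in macrophages, and its log2 ratio of -1.38 was 0.15 against neutrophils taken up to 10% mitochondrial UMIs.

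Receptor, cytoskeleton and granule genes were more often lower than higher, though most granule genes considered were not called. Of 19 listed neutrophil granule genes, 7 were considered, and 3 were lower and 0 higher, summing to 3403 CPM against 4806 CPM. Their median log2 ratio was -1.60 over the 13 with at least 10 UMIs, of which 2 were above 0. The granule gene Mmp9 had a log2 ratio of -4.77, found in 3 of 110 against 42 of 72 cells. The haptoglobin gene Hp had -4.54, the neutrophil surface gene Cd177 -4.01 and the histamine-making enzyme Hdc -5.75, at 1 UMI against 88. Lrg1 and Cass4 had 0 UMIs against 30 and 52. Among receptors of attraction and adhesion, C5ar1, the complement C5a receptor, was at 73.3 CPM against 518 CPM, the leukotriene receptor Ltb4r1 at 19.3 CPM against 247 CPM, and Selplg, the selectin ligand, at 46.3 CPM against 529 CPM. The hyaluronan receptor Cd44 had a median of 3.98 UMIs per 10000 against 18.6, at a ratio of 0.234 (0.194 to 0.282). Of 19 listed chemotactic and adhesion receptors, 9 were considered, and 6 were lower and 0 higher, with a median log2 ratio of -1.91. The actin-bundling gene Lcp1 was found in 60 of 110 against 67 of 72 cells, at 498 CPM against 2030 CPM. The 18 cytoskeleton and migration genes were all considered, and 9 were lower and 1 higher, summing to 18563 CPM against 39902 CPM.

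Sensing, signalling and lipid mediator genes followed. Of 23 listed sensing receptors, 12 were considered and 7 were lower, among them Cd14, the lipopolysaccharide co-receptor (104 CPM against 435 CPM), and Trem1, an amplifier of inflammatory signals (34.7 CPM against 288 CPM); 0 were higher. Of 18 growth factor and cytokine receptors, 9 were considered, and 7 were lower, including Il6ra and Csf2rb, and 0 higher. Rac2, the switch of the NADPH oxidase, was lower (log2 -2.43), and of 12 considered genes of the oxidase and granule release list 7 were lower and 1, Cd63, was higher. Alox5 and Alox5ap, which start leukotriene synthesis, had log2 ratios of -2.91 and -1.70. Of 14 considered transcription factors of myeloid cells, 6 were lower and 0 higher, led by Id1 (-3.86) and Xbp1 (-3.24). Among 15 considered immediate early genes, 6 were lower, such as Egr1 (-2.87) and Fosl2 (-3.29), and 2 higher. All 4 considered interferon-stimulated genes were lower, Slfn1, Ifitm2, Oasl2 and Rsad2, but all 32 neutrophil UMIs of Rsad2 lay in 1 cell, without which its log2 ratio was 2.09. The interferon list's median of -0.66 was 0.0056 without the neutrophils of 5 or more chemokine UMIs, and the immediate early median of -0.95 was 0.10 against neutrophils up to 10% mitochondrial UMIs.

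Other lists had few calls or calls in both directions. Nuclear genes of oxidative phosphorylation had 10 considered, 0 called and a median log2 ratio of -0.22. The NF-kB feedback genes had 1 higher and 2 lower of 10 considered and a median of -0.54. Hypoxia and glycolysis genes had 6 higher and 3 lower of 15 considered (median 0.68), antigen presentation and co-stimulation genes 2 and 2 of 7 (0.89), and matrix and coagulation genes 2 and 1 of 6 (1.16). Apoptosis control genes had 2 higher and 5 lower of 12 considered (-0.33). The 1 considered cell cycle gene, Stmn1, was higher (log2 1.25), but 54.8% of its UMIs lay in 1 cell, and without the topmost cells its log2 ratio was 0.60. Among chemokines outside the rule, Cxcl2 was at 2635 CPM against 1088 CPM, but 1 cell held 65.7% of its UMIs. Without the topmost cell of each set Cxcl2 was at 913 CPM against 617 CPM, a log2 ratio of 0.56 and within 2-fold. Its neighbour Cxcl3 was lower, at 15.4 CPM in 2 cells against 241 CPM in 7, but 1 neutrophil held 73.2% of the UMIs there. Without the topmost cells Cxcl3 was at 3.90 CPM against 65.9 CPM, under the minimum of 100 CPM. Ccl6 was at 2469 CPM against 4077 CPM, and Spp1, the secreted phosphoprotein osteopontin, at 3353 CPM against 1877 CPM, both within 2-fold.

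**Figure D3:**
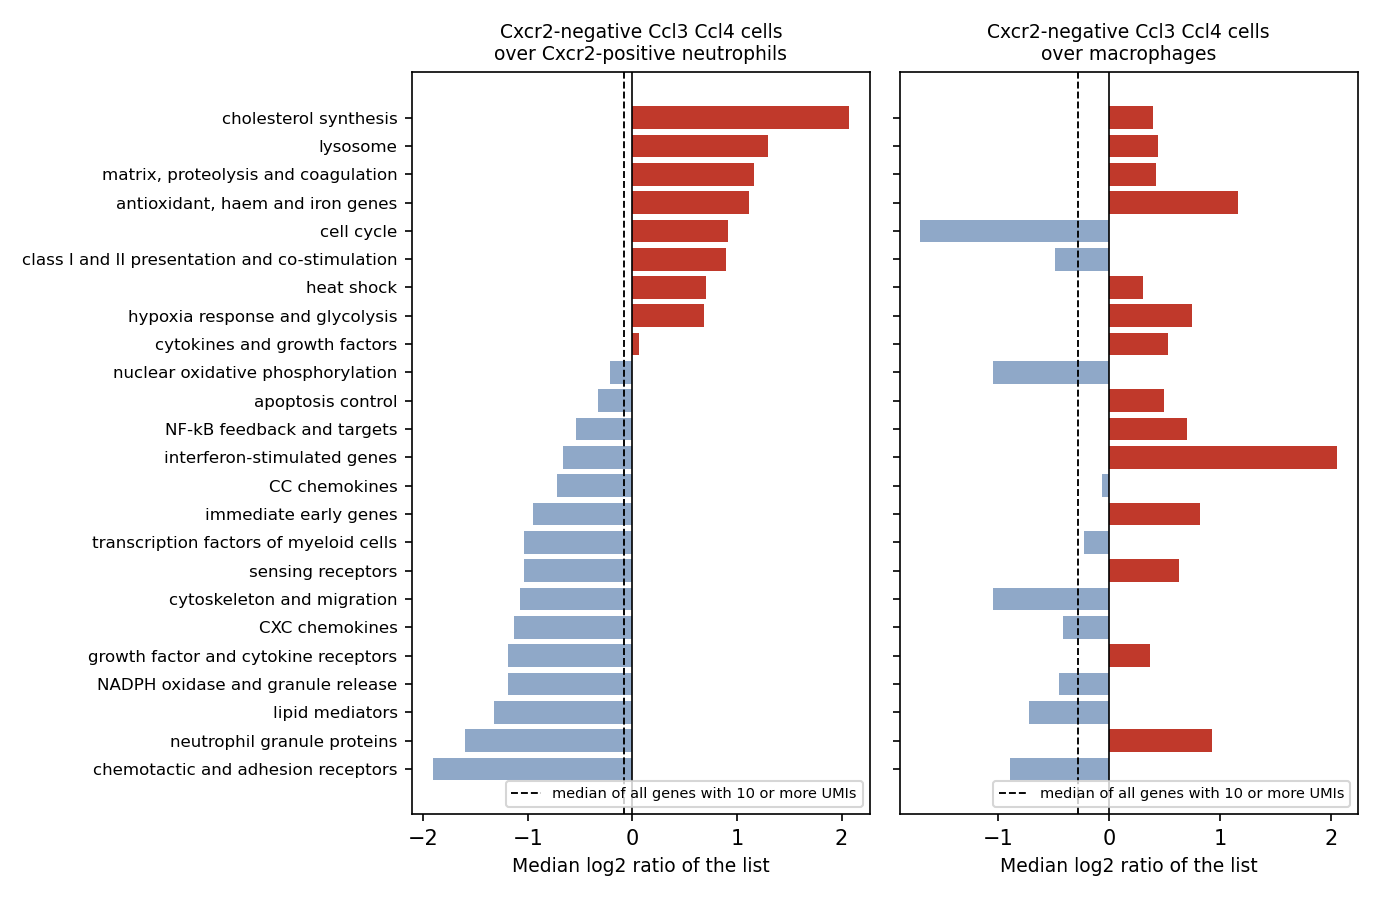
Median log2 ratio of 24 gene lists, over list members with at least 10 UMIs, for the Cxcr2-negative Ccl3 Ccl4 cells over the Cxcr2-positive neutrophils (left panel) and over macrophages (right panel) of the 1.5 ppm library; red bars are above 0, blue bars below, and the dashed line is the median of all genes with at least 10 UMIs. On the left the lists run from cholesterol synthesis at 2.07 to chemotactic and adhesion receptors at -1.91. On the right, medians of lists with many genes at 0 depend on how 0 is treated, and that of cytokines and growth factors is 0.53 as drawn and 3.32 with such genes set to their bound of 3 counts.

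The cells were next compared with sets of the same library that lie around the limits of the rule. These sets were chosen after the data were seen. Against 30 Cxcr2-negative cells with at least 5 granulocyte-gene UMIs but fewer than 5 of Ccl3 and Ccl4, 1031 genes were considered, and 97 (9.41%) were higher and 9 (0.873%) lower in the Cxcr2-negative Ccl3 Ccl4 cells, leaving 89.7% within 2-fold. The split is shaped by the unequal totals of the sets, since 30 UMIs were 116 CPM in the Cxcr2-negative Ccl3 Ccl4 cells but 454 CPM in the smaller set of 66086 UMIs. With 454 CPM as the minimum for both, 408 genes were considered, and 16 (3.92%) were higher and 9 (2.21%) lower. Ftl1 was at 39386 CPM against 43746 CPM, Cd63 at 4163 CPM against 3677 CPM, Ccrl2 at 1258 CPM against 1332 CPM and Thbs1 at 1705 CPM against 1982 CPM, all within 2-fold. Genes that were higher include Hmox1 (log2 1.17), Atf3 (1.35), Hspa1b (2.61) and Spp1 (1.94). Il1b was lower here as well, at 65.6 CPM against 469 CPM.

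Against 23 Cxcr2-positive neutrophils that also held at least 5 UMIs of Ccl3 and Ccl4, 1159 genes were considered, and 234 (20.2%) were higher and 75 (6.47%) lower, with 73.3% within 2-fold. At 1 minimum for both sets, 504 CPM, 413 genes were considered, and 58 (14%) were higher and 78 (18.9%) lower. Here the chemokine criterion was met by both sets, yet Il1b was at 65.6 CPM against 2539 CPM, a ratio of 0.0258 (interval 0.0147 to 0.0428). Cd44 (602 CPM against 2724 CPM), C5ar1 (73.3 CPM against 588 CPM) and Il1r2 (69.5 CPM against 588 CPM) were also lower, while Ftl1 (39386 CPM against 18293 CPM), Ccrl2 (1258 CPM against 404 CPM) and Lipa (413 CPM against 67.3 CPM) were higher. Against the 49 neutrophils with fewer than 5 chemokine UMIs, 1478 genes were considered, and 374 (25.3%) were higher and 297 (20.1%) lower, with 54.6% within 2-fold. At 271 CPM for both sets, 984 genes were considered, and 211 (21.4%) were higher and 297 (30.2%) lower. Ftl1 was at 39386 CPM against 4886 CPM there, Hmox1 at 941 CPM against 27.1 CPM, and Thbs1 at 1705 CPM against 778 CPM, now past 2-fold.

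The third neighbouring set had the chemokines but 0 or 1 granulocyte-gene UMIs. Against these 31 cells, with a median of 1921 UMIs, 1100 genes were considered, and 148 (13.5%) were higher and 11 (1%) lower, with 85.5% within 2-fold. Clec4d was at 2465 CPM against 2946 CPM and Il1b at 65.6 CPM against 34.1 CPM. Spp1 was higher, at 3353 CPM against 426 CPM, and Slc7a11 lower, at 1246 CPM against 2878 CPM. At 1 minimum for both sets, 511 CPM, 357 genes were considered, and 14 (3.92%) were higher and 11 (3.08%) lower.

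The order of the sets can be read gene by gene, with the Cxcr2-negative Ccl3 Ccl4 cells split at 5 granulocyte-gene UMIs into 74 and 36 cells. Ccrl2 was at 973 CPM (837 to 1124) in the 74 and 2013 CPM (1697 to 2371) in the 36, and at 1345, 1332, 404 and 63.3 CPM in the set with 0 or 1 granulocyte UMIs, the Cxcr2-negative set of low chemokine, the Cxcr2-positive set of high chemokine and the Cxcr2-positive set of low chemokine. Cd63 was at 3954 CPM and 4716 CPM, and then at 4547, 3677, 1984 and 597 CPM. Il1b was at 85.0 CPM and 14.1 CPM, and then at 34.1, 469, 2539 and 2452 CPM. Lysosomal genes summed to 16153 CPM and 15021 CPM, and then to 17387, 15586, 9718 and 4425 CPM. Cytoskeleton and migration genes summed to 19847 CPM and 15162 CPM, and then to 14492, 20958, 31425 and 44464 CPM. Of these, Ccrl2, Cd63, the lysosomal sum and the cytoskeleton sum lay between the Cxcr2-negative sets and the other neutrophils in the Cxcr2-positive neutrophils with many chemokine UMIs, and Il1b did not. Over all 24 lists, that held for the sums of 11. The Cxcr2-positive set of high chemokine lay above all the others for 7 lists, among them cytokines and growth factors (6826 CPM, against 4931 CPM in the set of low chemokine), NF-kB feedback genes (6709 CPM against 4651 CPM) and interferon-stimulated genes (4018 CPM against 2597 CPM), below all for 4 and within the range of the Cxcr2-negative sets for 2. That set holds only 23 cells and 59475 UMIs, so single cells can weigh in its sums. The interferon sum includes Rsad2, whose neutrophil UMIs all lay in 1 cell of this set.

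**Figure D4:**
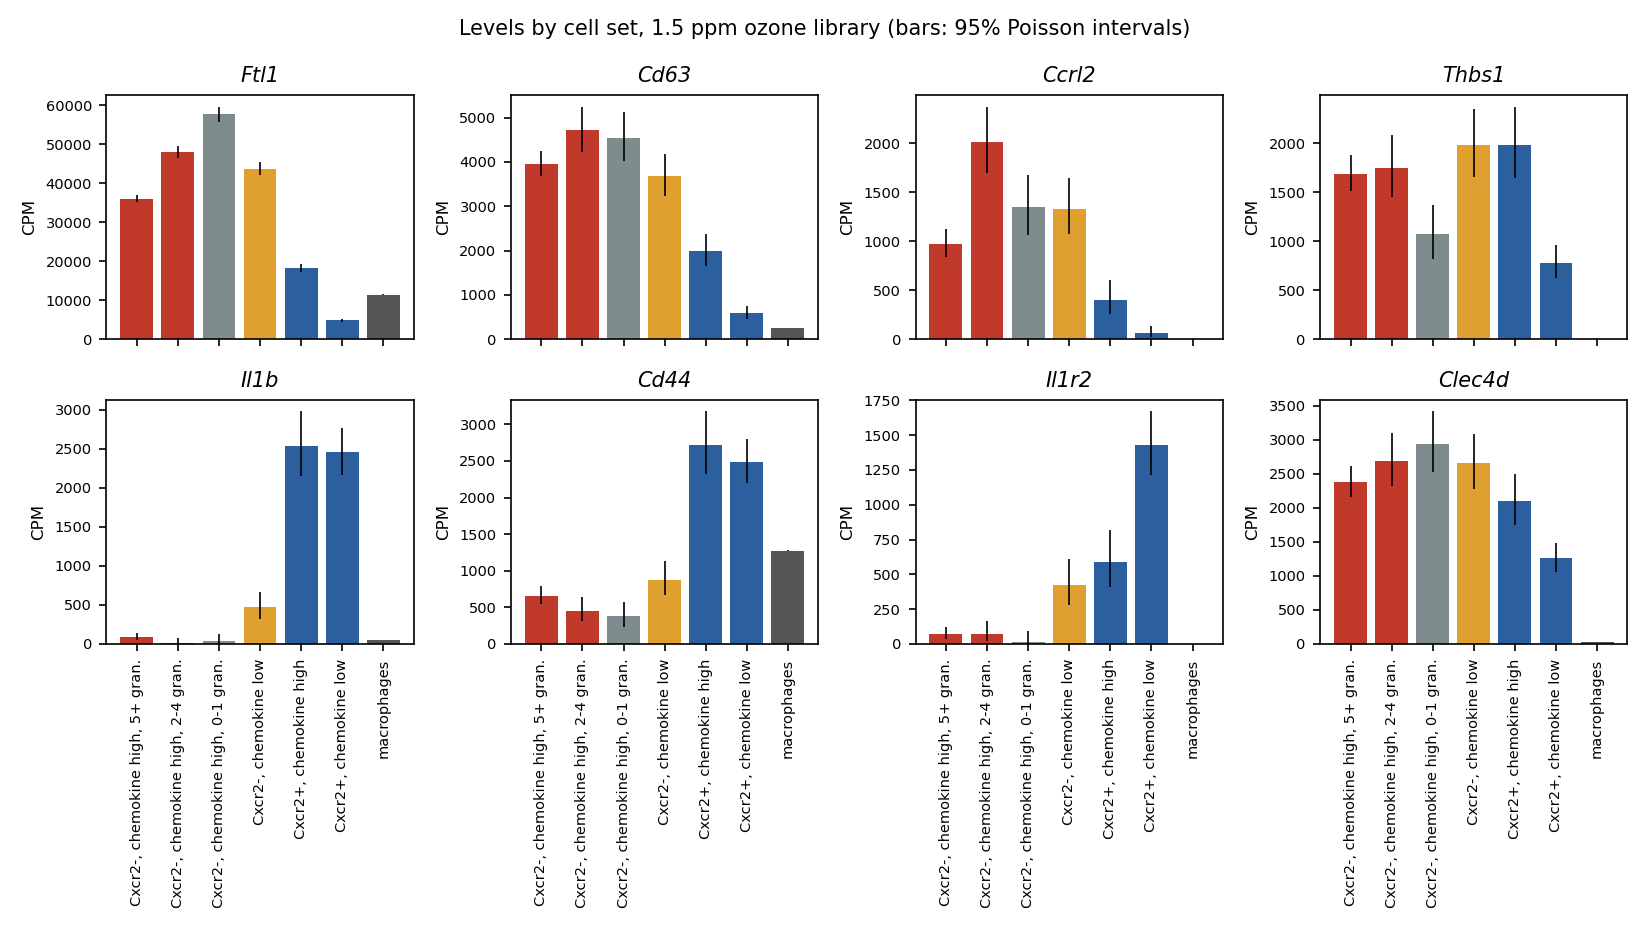
Levels of 8 genes in CPM (bars, with exact Poisson 95% intervals) in 7 cell sets of the 1.5 ppm library, from left to right the Cxcr2-negative Ccl3 Ccl4 cells with at least 5 and with 2 to 4 granulocyte UMIs (red), the set with 0 or 1 (grey), the Cxcr2-negative set of low chemokine (yellow), the Cxcr2-positive sets of high and low chemokine (blue), and macrophages (dark grey). Ftl1, Cd63 and Ccrl2 are high in the Cxcr2-negative sets, lower in the Cxcr2-positive set of high chemokine and lower still in that of low chemokine. Il1b and Cd44 are lower in the Cxcr2-negative sets than in both Cxcr2-positive sets.

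How the rule's own genes fell together is given as a description. Among cells with at least 5 granulocyte-gene UMIs, Cxcr2 was found in 36 of 46 cells with 0 UMIs of Ccl3 and Ccl4 (78.3%), in 13 of 33 with 1 to 4 (39.4%), in 5 of 32 with 5 to 9 (15.6%) and in 18 of 65 with 10 or more (27.7%). With every cell thinned to 1000 UMIs, the shares were 70.6%, 22.6%, 5.26% and 23.3% in the same order. Median UMIs per cell ran from 2201 to 2291 over the 4 classes, but median granulocyte-gene UMIs were 66.5, 20, 14.5 and 22, so the class without chemokine UMIs also held the most of those genes. Cxcr2 was found in 0 of 48 T cells, the check on free RNA, which had a median of 3981 UMIs. A cell with 0 UMIs of Cxcr2 may still express it below detection.

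Against macrophages of the same library, 2561 genes were considered, of which 560 (21.9%) were higher and 898 (35.1%) lower in the Cxcr2-negative cells. The share of higher genes among the called ones was 38.4%, and it fell to 22.2% (358 higher, 1256 lower) when scaled by the median ratio over genes, which shifts all log2 ratios by -0.54. Median depth was 2168 UMIs in the Cxcr2-negative cells and 13261 in macrophages. With every cell thinned to 1000 UMIs, 346 genes were higher and 970 lower, or 26.3% higher among those called. Of the 560 higher calls, 520 remained without the topmost cell of each gene, as did all 898 lower calls.

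Apart from the rule's own genes, the largest ratios over macrophages were those of Thbs1 (log2 8.35), the formin Fmnl2 (7.96), Cxcl2 (7.76), Ankrd33b (7.61), Ccrl2 (7.34), the actin-linked kinase substrate Marcks (6.99), Gadd45b (6.95), Prrg1 (6.94), Rab15 (6.85), the growth factor receptor Igf1r (6.83), Plbd1 (6.77) and the stress gene Ier3 (6.73). Fmnl2 was found in 64.5% of Cxcr2-negative cells against 1.13% of macrophages, and Ankrd33b in 74.5% against 0.716%. Itgam, the complement receptor chain CD11b, was at 386 CPM against 2.19 CPM, and the platelet-activating factor receptor Ptafr at 544 CPM against 4.05 CPM. Il1rn, the interleukin-1 receptor antagonist, was at 1582 CPM against 81.8 CPM. Il1b had 65.6 CPM against 51.0 CPM.

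Iron and antioxidant genes were higher than in macrophages too, at 112475 CPM for the list against 42053 CPM, with 11 of 18 considered higher and 5 lower. Ftl1 was at 39386 CPM against 11476 CPM, Slc7a11 at 1246 CPM against 36.4 CPM, and the iron exporter Slc40a1 at 328 CPM against 5.21 CPM. Cd63 was at 4163 CPM against 247 CPM and Ctsb at 2847 CPM against 576 CPM, while the cathepsins Ctss (328 CPM against 1747 CPM) and Ctsc (127 CPM against 674 CPM) were lower. Of 17 considered lysosomal genes 4 were higher and 3 lower, so these genes were not higher as a group over macrophages. Cholesterol genes had 4 of 7 considered higher and 0 lower. Among 14 considered immediate early genes 9 were higher and 2 lower, with Atf3 at 448 CPM against 10.9 CPM and Jun at 702 CPM against 28.0 CPM.

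Lower than in macrophages were the lysozyme gene Lyz2 (2188 CPM against 7731 CPM), the macrophage transcription factor Pparg (65.6 CPM against 553 CPM), fibronectin Fn1 (73.3 CPM against 502 CPM) and the oxidase subunit Cybb (124 CPM against 930.0 CPM). In the Cxcr2-negative cells 1 cell supplied much of these sums. Without the topmost cell they were at 1451 CPM (Lyz2), 28.7 CPM (Pparg), 32.8 CPM (Fn1) and 77.9 CPM (Cybb), still called lower. Of 20 considered nuclear genes of oxidative phosphorylation, 10 were lower and 0 higher. All 5 considered cell cycle genes were lower, among them Top2a (34.7 CPM against 194 CPM, and 8.20 CPM without the topmost cell). The 12 lowest were Adgrl3, Pla2g4a, Erc2, Pdgfc, Pola1, Pbx3, Diaph3, Slc8a1, Nrip1, Abca1, Adarb1 and Dip2c. Among these, Pla2g4a, Erc2, Pdgfc, Pola1, Pbx3 and Diaph3 had 0 UMIs. Of the 17 alveolar macrophage markers, 15 were lower and 0 higher.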

How the data were processed

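Airspace immune cells from 3 pooled libraries were analysed. The deposited values are whole-number UMI counts per gene and barcode, produced upstream by Cell Ranger 8.0.0 with build GRCm39 (mm39), as the submitters' processing notes list. The treatment of intronic reads is not stated there. No deposited barcode had fewer than 500 UMIs. Cells were chosen by the stated rules. T cells had at least 2 UMIs of Cd3d, Cd3e and Cd3g. No doublet caller was run, and barcodes that also met the macrophage rule were left out as an alternative.

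UMIs were summed per cell set and scaled to CPM, with exact Poisson intervals, exact conditional intervals for ratios and exact binomial (Clopper-Pearson) intervals for shares. Log2 ratios had 1 UMI added to the set with the smaller total and a proportional amount to the other, in place of the planned 1 UMI for each sum, which is kept as an alternative. A fold against a set at 0 uses 3 counts. Thinning was to 1000 UMIs per cell with a fixed seed. The text names, per comparison, the 12 highest and 12 lowest genes and up to 4 members of each of 24 lists by absolute log2 ratio; other genes named were chosen after their values were seen. Some genes that this rule names are not reported here. The cells and lists were chosen with earlier results of these data known. Lists needed 10 UMIs per gene. Alternatives included other mitochondrial, UMI and marker limits, scalings, filters and cell sets. Scripts were tested on simulated data. Versions were scipy 1.17.1, numpy 2.4.6, matplotlib 3.10.9, pandas 2.3.3 and Python 3.11.15.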

Additional observations from a re-analysis of the deposited data

How the results depend on the processing

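No paired analysis was possible because each exposure is 1 pooled library. Of the settings tried, the following moved a count by more than 1.5 times or turned a sign, and the cause was not tested except where the setting itself removes cells or genes. The number of Cxcr2-negative Ccl3 Ccl4 cells at 1 ppm was 4 with up to 10% mitochondrial UMIs, and at 1.5 ppm 71 with at least 10 UMIs of Ccl3 and Ccl4 and 67 on thinned cells. Against the neutrophils, thinning left 192 higher and 151 lower genes. Neutrophils taken up to 10% mitochondrial UMIs gave 720 lower genes, and 5 lists with a median above 0.5 and 8 below -0.5, in place of 8 and 13. That wider set was not cleared of barcodes meeting the macrophage rule. With the same limit for the Cxcr2-negative Ccl3 Ccl4 cells at 1.5 ppm, 10 of the 18 cells added met that rule. Against macrophages, thinning gave 346 higher genes and 8 lists below -0.5, in place of 5. Median-of-ratios scaling gave 358 higher genes, 4 lists above 0.5, in place of 8, and 9 below -0.5. Lower genes numbered 4492 with no CPM minimum and 427 at 200 CPM, lists above 0.5 numbered 14 with 1 UMI added to each sum and 3 without the topmost cell of each gene.

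Signs that turned were as follows. The cell cycle median against neutrophils was -0.024 as a mean over cells, 0.00 thinned and -1.07 against neutrophils up to 10% mitochondrial. Without neutrophils of 5 or more chemokine UMIs, the medians were 0.38 for CC chemokines, 2.87 for CXC chemokines and 0.0056 for interferon-stimulated genes, and Rsad2 was 2.97. With neutrophils of at least 2 Cxcr2 UMIs, interferon-stimulated genes were 0.22 and Rsad2 3.15. Against neutrophils up to 10% mitochondrial, medians were 0.42 for CXC chemokines, 0.49 for NF-kB targets, 0.10 for immediate early genes, 0.26 for interferon-stimulated genes and -0.031 for heat shock, with Abcc5 at -0.51, Stmn1 at -1.48, Csf1 at 0.15 and Rsad2 at 0.047. Without topmost cells Rsad2 was 2.09. Against macrophages, the granule protein median was -1.49 thinned, -0.74 for macrophages up to 1% mitochondrial and -0.10 without topmost cells, where cytokines were -0.019, and interferon-stimulated genes were -0.11 with at least 5 granulocyte UMIs.

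Sums rest on 259178 UMIs of 110 cells and 169992 of 72, so genes under 100 CPM were not called.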
